A study of Rattus norvegicus with 241 samples.

Results

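Mast cell transcripts were followed in leukocytes sorted from the mammary glands and mammary tumors of rats treated with a TGFβ receptor inhibitor. The set has 7 genes, matched by symbol: the tryptases TPSAB1 and TPSB2, the carboxypeptidase CPA3, the chymase CMA1, the IgE receptor chains FCER1A and MS4A2, and the histidine decarboxylase HDC. All 7 were listed among the 15924 genes of the CD45 tables, although FCER1A was not analysed here in adult ACI rats. They were chosen by measured values, their lower levels in CD45 cells of tumors after TGFBRi, so that contrast is described without a test.

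Mast cells are tissue leukocytes that settle in connective tissue and mature there under the growth factor receptor KIT. They store proteases and histamine in granules and release them when antigen cross-links IgE on the high-affinity receptor FcεRI. They are found in the stroma of the mammary gland and around mammary tumors, but are a small share of its leukocytes.

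CD45, the protein encoded by PTPRC, marks leukocytes, and RNA of sorted CD45 cells was sequenced for 65 rats, with 74 samples in all: 68 from glands and 6 from tumors. Rats received vehicle or TGFBRi, the kinase inhibitor LY2157299, at 75 mg/kg 2 times a day for 10 days. Inbred ACI rats dosed from 35 days of age (young ACI) were taken 0, 7 and 14 days after the last dose, with 3 rats per treatment and day, and outbred SD rats dosed from 24 days of age (young SD) at day 0, with 4 rats per treatment. Adult ACI rats of 18 to 24 weeks were virgin or parous, with 4 and 2 vehicle rats and 3 and 4 TGFBRi rats. SD rats dosed from 21 days of age were then given the carcinogen N-nitroso-N-methylurea (NMU, 50 mg/kg), and glands were collected 87 days later from 3 tumor-bearing vehicle rats, 3 tumor-bearing TGFBRi rats and 3 tumor-free TGFBRi rats. Tumors of the same 6 tumor-bearing rats were also sorted. In the estradiol (E2) experiment, ACI rats were 38 days old at the first of 21 days of dosing. They then either received no E2 (4 vehicle, 3 TGFBRi) or carried an E2 pellet. With E2 there were 4 tumor-bearing vehicle, 2 tumor-bearing TGFBRi and 4 tumor-free TGFBRi rats. Per the study's methods, implants were placed at 60 days of age. Glands were taken at the end of that tumor experiment, from older rats than the young ACI groups. All rats outside the parous groups were virgin.

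Each CD45 sample held 7006141 to 40042138 reads on genes. Levels are given as RPM, the reads of a gene per 1000000 reads on genes of the same sample, or as the authors' normalized value, the reads divided by a size factor, which can be compared only within an experiment. The sorts were not pure: across NMU glands COL1A1, a fibroblast collagen, reached 2558 to 11748 RPM, and the gland sort of TGFBRi rat D2N had 48.3 RPM of PTPRC and 7039 of the basal keratin KRT14. For rat LD2LR, in the young ACI vehicle group at day 7, the labels contradict each other on the treatment, and for rat LD9R, in the TGFBRi group at day 7, on the day. By limma, no mast cell gene passed the threshold in a day 7 contrast, with or without either of these rats. In sorted bulk RNA, fewer mast cells and less RNA per mast cell cannot be told apart.

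The starts of 3 of these genes are shown because CPA3 and CMA1 varied most closely together, while the tryptase TPSB2 had the smallest p of the members at day 0 in young ACI glands. They are the 250 bases upstream of the annotated start on the GRCr8 assembly from RefSeq, at chr2:104673238-104673487 on the minus strand, chr15:33390134-33390383 on the minus strand and chr10:14886060-14886309 on the plus strand. Capitals mark the letters GATA where A or T stands before them and A or G after, on either strand, the motif that GATA factors prefer. GATA2, a factor of this family, is a mast cell regulator. The motif stood in 3 of the 6 members in the table, CPA3, CMA1 and FCER1A, and in 27.0% of all 33469 promoters of this length. MS4A2 was not in the table.
CPA3: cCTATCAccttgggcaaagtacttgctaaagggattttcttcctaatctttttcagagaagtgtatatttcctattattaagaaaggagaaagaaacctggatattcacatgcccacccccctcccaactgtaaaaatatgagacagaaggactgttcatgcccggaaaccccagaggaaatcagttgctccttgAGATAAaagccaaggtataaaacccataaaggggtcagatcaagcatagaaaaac
CMA1: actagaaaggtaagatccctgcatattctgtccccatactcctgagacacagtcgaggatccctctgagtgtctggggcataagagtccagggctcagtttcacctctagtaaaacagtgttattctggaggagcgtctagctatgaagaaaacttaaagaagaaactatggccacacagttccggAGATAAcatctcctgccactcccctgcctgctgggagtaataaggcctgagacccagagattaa
TPSB2: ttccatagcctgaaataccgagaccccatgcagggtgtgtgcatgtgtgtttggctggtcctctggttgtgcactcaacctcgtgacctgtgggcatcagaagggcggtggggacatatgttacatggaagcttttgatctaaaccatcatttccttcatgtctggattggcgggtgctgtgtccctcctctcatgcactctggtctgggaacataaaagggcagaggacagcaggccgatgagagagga

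Mast cell transcripts varied widely among experiments and among rats of 1 group. The median rat held 285 RPM, summed over the members, in young SD glands (range 47 to 1421, n = 8), 67.1 in young ACI glands (31.2 to 900, n = 18) and 39.2 in NMU glands (18.2 to 82, n = 9). It held 9.68 in the E2 experiment (0.0361 to 53, n = 17) and 7.17 in adult ACI glands (1.93 to 20.6, n = 13, without FCER1A). Tumor CD45 cells stood highest, at a median of 503 (144 to 4937, n = 6). Ordered by these medians, each range overlapped that of its neighbour. CMA1 had reads in every rat but 1 of the E2 experiment, whereas FCER1A was at 0 in 8 of 17 rats there and MS4A2 in 6 of 18 young ACI rats.

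**Figure D1:**
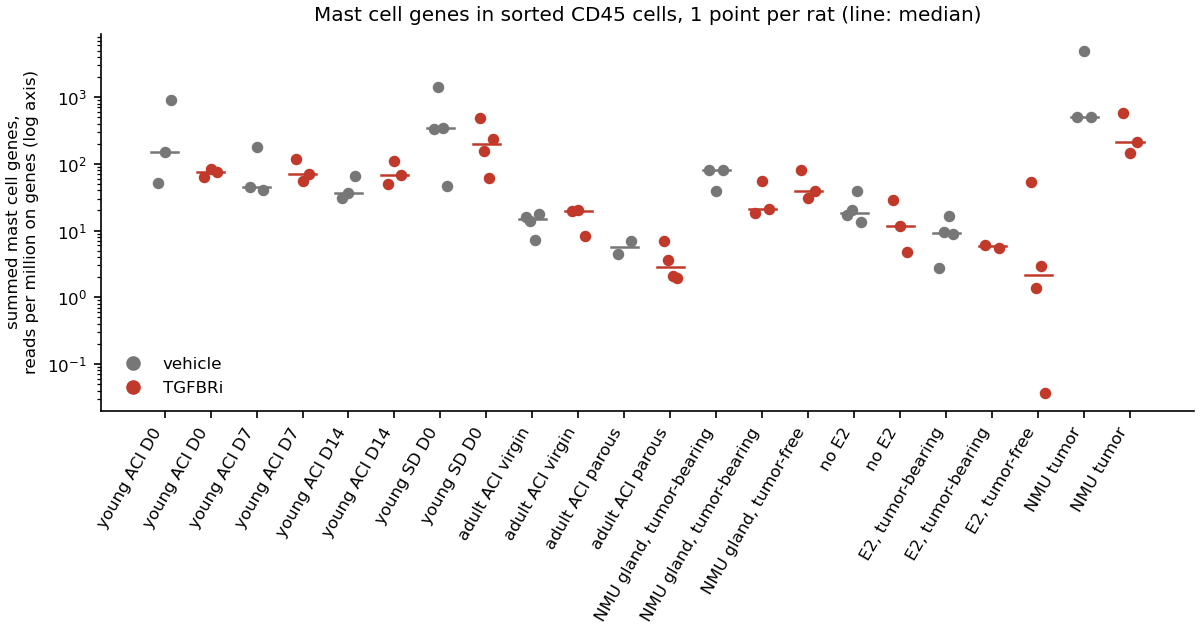
Summed RPM of the 7 mast cell genes (log axis) in CD45 cells, 1 point per rat, with the group median as a line; groups are ordered by experiment and coloured by treatment. Single rats stand far above their groups, such as 900 in a young ACI vehicle rat at day 0 and 4937 in a vehicle tumor, and adult and E2 glands lie lowest.

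The first comparison asks whether inhibitor dosing shifted mast cell transcripts in the peripubertal ACI gland and whether a shift lasted. At day 0 all 7 genes had lower mean log2 values after TGFBRi, but the vehicle rats ranged widely and no difference passed the threshold. For the chymase CMA1, the normalized value was 697, 1794 and 8593 in the 3 vehicle rats and 526.4, 780 and 838 in the 3 TGFBRi rats. For CPA3, a protease stored with chymase in the granule, it was 146, 979 and 8427 in vehicle rats and 328, 563 and 695 in TGFBRi rats. Vehicle rat LD4R was high for all 7 genes and vehicle rat LD3L lay within or below the TGFBRi range for all 4 proteases, so the groups overlapped.

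The tryptases, which are also granule proteases, had the smallest p at day 0. TPSB2 was at 201, 885 and 2277 in vehicle rats and at 184, 220 and 264 in TGFBRi rats, a difference of -1.74 ± 0.63 (SE) on the log2(value + 1) scale, with a limma adjusted p of 0.14. TPSAB1 was at 98.7, 706 and 848 against 51.9, 120 and 180, a difference of -1.90 ± 0.83 (SE), adjusted p = 0.24 by limma. Both vehicle rats other than LD3L exceeded every TGFBRi rat for these genes. By limma 0 of 7 members and 2.85% of all genes passed, and the members' median was -1.69 against -0.04 for all genes tested. At an unadjusted p below 0.05 stood 3 members and 17.9% of all genes, and edgeR called 0 members and 1.3% of all genes. DESeq2 called 3 members lower, TPSB2, CMA1 and TPSAB1, against 4.69% of all genes called lower by that test. Without rat LD3L limma called TPSB2 (-2.68, adjusted p = 0.0067) and TPSAB1 (-2.88, adjusted p = 0.040) lower, as it did 2.55% of all genes.

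Other cells moved with treatment in these samples. The T cell marker CD3E was at 613 RPM in LD3L, against 17.5 in LD3R and 32.4 in LD4R, and at 114 to 563 in the 3 TGFBRi rats, so the vehicle rats high in mast cell genes were those low in CD3E. The 11 fibroblast markers summed to 12878 to 32810 RPM in vehicle and 1024 to 7383 in TGFBRi rats, the 9 basal epithelial markers to 171 to 464 and 5.51 to 11.5, and the 10 neutrophil markers to 31.8 to 94.4 and 467 to 1827. The summed leukocyte markers were at 5884 to 7495 and 5595 to 6716. The part of these markers in the mast cell values was not tested. KIT, the stem cell factor receptor, was at 374, 440 and 578 in vehicle and 143, 154 and 302 in TGFBRi rats, but missed the threshold (limma adjusted p = 0.12). Of the 23 other mast cell genes measured, 0 passed by limma and 1 by DESeq2.

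Without inhibitor, the granule proteases had lower values at day 14 than at day 0, though limma and edgeR called none. CMA1 was at 284, 473 and 638 at day 14, below all 3 rats of day 0, a difference of -2.32 ± 0.74 (SE), and TPSB2 was at 91.9, 149 and 230, a difference of -2.33 ± 0.63 (SE). CPA3 was at 44, 183 and 232, a difference of -3.10 ± 1.26 (SE). Limma called none of the 3 (adjusted p = 0.18, 0.11 and 0.28) and 0.129% of all genes, and edgeR called no member and 0.0406% of all genes. At an unadjusted p below 0.05 stood 4 members and 14.3% of all genes. DESeq2 called these 3 genes lower, as it did 2% of all genes, and without rat LD3L limma called these 3 and TPSAB1 lower, beside 3.28% of all genes. CMA1 alone did not overlap, against 7.03% of all genes that did not overlap in that direction. The summed basophil markers were lower as well, at 23.2 to 28.0 RPM against 28.1 to 71.6 at day 0, and their part was not tested. That sum includes MCPT8, which also had UMIs in 6 of the 9 single cells with the mast cell set described below, so it is not particular to basophils. From day 0 to day 7 limma called 0 members and 0% of all genes. DESeq2 called TPSB2 lower (-2.39), as it did 0.108% of all genes, and limma did so without rat LD3L, where 0.0205% of all genes were called lower.

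At day 14 the order of the treatments was the opposite of day 0. TPSAB1 was at 221, 263 and 424 in TGFBRi rats and at 34.9, 89 and 207 in vehicle rats, a difference of 1.74 ± 0.83 (SE) with a limma adjusted p of 0.90. HDC, the enzyme that makes histamine, was at 34.6, 37.0 and 42.9 against 0, 25.1 and 25.7. These 2 members did not overlap, where 8.26% of all genes were higher without overlap, and all 7 had higher mean log2 values; limma called 0 members and 0% of all genes, DESeq2 0 members and 0.115% of all genes, and 0 members and 4.91% of all genes had an unadjusted p below 0.05. The 3 measured basophil markers were also higher without overlap, at a sum of 28.2 to 53.8 RPM after TGFBRi and 23.2 to 28.0 in vehicle rats. MCPT8 is again part of that sum. Basophils make HDC too, and their part was not tested. The change of the TGFBRi effect from day 0 to day 14 was tested directly: it was 3.63 ± 1.17 (SE) for TPSAB1, 2.46 ± 0.89 for TPSB2 and 2.54 ± 1.05 for CMA1, with limma adjusted p of 0.15, 0.19 and 0.25, where 0.19% of all genes passed. DESeq2 called those 3, against 4.08% of all genes, and without rat LD3L limma called TPSAB1 and TPSB2, beside 2% of all genes called higher. At day 7 the members went both ways (4 higher, 3 lower, median 0.14). Within TGFBRi rats no member passed at day 7 or day 14 against day 0, while 1 other mast cell gene did: IL1RL1, the IL-33 receptor that mast cells share with other leukocytes, rose from 171, 584 and 711 at day 0 to 2617, 4364 and 12310 at day 14 (3.65 ± 0.94 SE, limma adjusted p = 0.031, where 3.97% of all genes rose). That call was lost in 4 of the fits that left out 1 rat (adjusted p up to 0.16). Other cells moved with these days: in TGFBRi rats the fibroblast markers summed to 1024 to 7383 RPM at day 0 and 11791 to 90553 at day 14, the basal epithelial markers to at most 11.5 and at least 179, and the neutrophil markers to 467 to 1827 and 36.7 to 82.6. Their part in the IL1RL1 values was not tested.

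**Figure D2:**
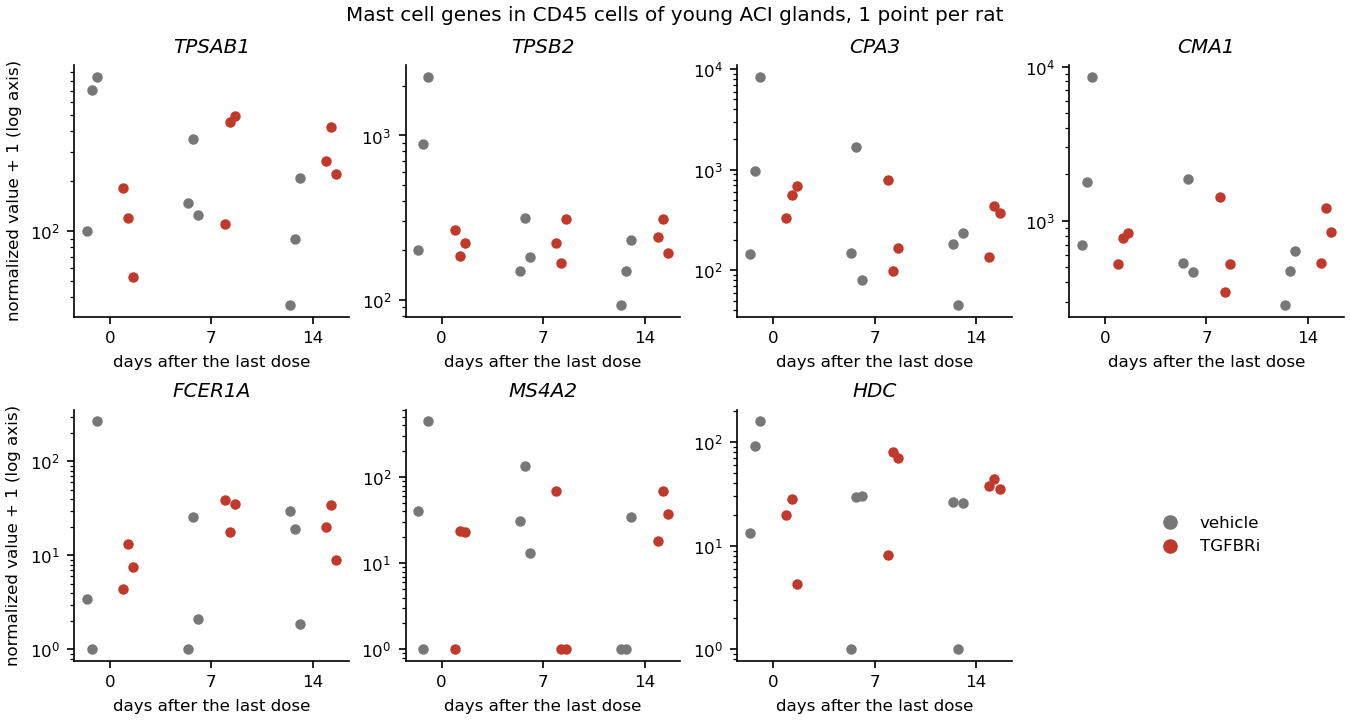
Normalized value + 1 (log axis) of each mast cell gene in CD45 cells of young ACI glands by days after the last dose, 1 point per rat, vehicle beside TGFBRi. The high vehicle rat at day 0 (CPA3 8427, CMA1 8593) and the lower vehicle rats at day 14 are visible, as are the TGFBRi rats above vehicle for TPSAB1 and HDC at day 14.

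In young SD glands, which were sampled only at day 0, 6 of 7 members were lower after TGFBRi and none passed the threshold. CMA1 was at 352, 1723, 2145 and 7194 in the 4 vehicle rats and at 351, 915, 1137 and 2539 in the 4 TGFBRi rats, a difference of -0.83 ± 0.80 (SE; limma adjusted p = 0.87). CPA3 was at 170, 673, 1048 and 5476 against 22.7, 287, 1257 and 1932, a difference of -1.33 ± 1.29 (SE; adjusted p = 0.87 by limma). Vehicle rat C7R and TGFBRi rat D8N were nearly equal at the low end of CMA1, and the groups overlapped for every member. Limma, edgeR and DESeq2 called 0 members, limma called 0% of all genes, and 0 members and 3.64% of all genes had an unadjusted p below 0.05. Vehicle rat C6R held 1421 RPM summed over the members and was highest for all 7 genes. Of the other mast cell genes 0 of 21 passed.

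Parity was compared in adult ACI rats, whose mast cell values were low. CMA1 was at 8.73, 11.4, 17.9 and 40.6 in the 4 parous TGFBRi rats and at 46.3, 112 and 128 in the 3 virgin TGFBRi rats, a difference of -2.33 ± 0.74 (SE; limma adjusted p = 0.89). These groups did not overlap, as for 1.36% of all genes that were lower in parous rats. All 6 measured members had lower mean log2 values in parous TGFBRi rats, with a median of -2.0 against 0.17 for all genes tested. Virgin TGFBRi rat D_N1R stood apart for other genes, with KIT at 4.71 (others 1234 and 3169), GATA2 at 4.71 (86.8 and 89.9) and IL1RL1 at 448 (2220 and 2606). What set that sample apart was not tested. In vehicle rats CPA3 was at 30.01 and 35.8 in the 2 parous rats and at 85.8, 102.4, 157 and 205 in the 4 virgin rats, a difference of -1.95 ± 1.03 (SE; limma adjusted p = 1). CPA3 and TPSB2 lay below the virgin rats without overlap, as did 4.95% of all genes. Of the 6 measured members 4 had lower and 2 had higher mean log2 values in parous vehicle rats, with a median of -0.79. Other markers separated the same rats: the luminal epithelial markers summed to 1076 to 2078 RPM in parous and 2198 to 18699 in virgin vehicle rats, the basal epithelial markers to 303 to 329 and 335 to 1073, and the leukocyte markers to 5387 to 5764 and 2361 to 5372. Their part in the mast cell values was not tested. Between treatments, MS4A2 was lower in parous TGFBRi rats (0, 0, 0.897 and 3.32) than in parous vehicle rats (9.94 and 10.0), where 4.6% of all genes were lower without overlap. Limma, edgeR and DESeq2 called 0 members in each of the 5 contrasts of this experiment, and limma called 0.00441% of the tests over all genes. An unadjusted p below 0.05 was found in 3 tests of a member and in 3.04% of those over all genes. Of the other mast cell genes 0 of 20 passed.

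In glands of NMU rats 87 days after the carcinogen, tumor-bearing TGFBRi rats were compared with tumor-bearing vehicle rats. CMA1 was at 269, 346 and 480 in vehicle rats and at 77.1, 115 and 332 in TGFBRi rats, a difference of -1.3 ± 0.56 (SE; limma adjusted p = 0.62). FCER1A, the chain that binds IgE, was at 14.9, 34.2 and 88.6 against 3.68, 4.82 and 11.1, a difference of -2.42 ± 1.12 (SE; limma adjusted p = 0.66). FCER1A alone did not overlap, as for 4.66% of all genes lower without overlap. Of the 7 members 4 had lower and 3 had higher mean log2 values, with a median of -1.30 against 0.09 for all genes tested. The summed leukocyte markers were at 3937 to 5135 RPM in vehicle rats and at 867 to 4372 in TGFBRi rats, where D2N was the lowest, and the 9 basal epithelial markers were at 619 to 976 and at 1752 to 21556. The 10 fibroblast markers were lower without overlap after TGFBRi, at 7778 to 11372 against 14117 to 29786. Their part in the difference was not tested. In tumor-free TGFBRi rats CMA1 was at 203, 287 and 523, overlapping both other groups. In the 3 contrasts limma, edgeR and DESeq2 called 0 members, and limma called 0.00501% of the tests over all genes. An unadjusted p below 0.05 was found in 1 test of a member and in 5.93% of those over all genes, and 0 of 19 other mast cell genes passed.

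E2 and tumors cannot be told apart in vehicle rats of the E2 experiment, because every vehicle rat with E2 that was sampled bore tumors. TPSAB1 was at 8.58, 11.1, 38.3 and 72.4 with E2 and at 146, 173, 176 and 219 without, a difference of -2.88 ± 1.3 (SE; limma adjusted p = 0.39). It was the 1 member without overlap, against 3.38% of all genes, and the other 6 members also had lower mean log2 values. The luminal epithelial markers also separated these rats, at a sum of 93.4 to 284 RPM with E2 and 409 to 1149 without, and their part was not tested. In tumor-free TGFBRi rats with E2, TPSAB1 was at 0, 0.881, 8.72 and 120, against 41.5, 45.3 and 160 without E2, a difference of -3.31 ± 1.40 (SE; limma adjusted p = 0.17). Limma called 0 members there and 5.58% of all genes, but without rat A4-15 it called 2 members lower, TPSAB1 (-4.69, adjusted p = 0.042) and TPSB2 (-4.58, adjusted p = 0.018), as it did 0.819% of all genes. The direction of 2 members differed between the tests: CPA3 differed by -2.23 by limma and by 0.57 by edgeR, TPSB2 by -2.95 and by 0.060. Over the 5 contrasts of this experiment limma, edgeR and DESeq2 called 0 members, where DESeq2 left several members without an adjusted p, and limma called 1.18% of the tests over all genes. An unadjusted p below 0.05 was found in 3 tests of a member and in 10.3% of those over all genes.

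Rat A4-15 gave 4 samples, labelled pt1 to pt4, which show how far mast cell transcripts varied within 1 rat. CPA3 was at 800, 987, 45.8 and 26.7 in these samples in that order, and CMA1 at 557, 1090, 65 and 48.3. TPSAB1 was at 184, 153, 115 and 30.2. The first 2 samples were high in all 3 proteases and the fourth was low, while PTPRC stayed between 25449 and 30263. The mean of the 4 samples entered the comparisons. The other 3 tumor-free TGFBRi rats with E2 had 0, 0 and 43.4 for CPA3, a narrower span than that of the 4 samples.

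In the same contrast, tumor-free TGFBRi rats with E2 against TGFBRi rats without, limma called 7 of 21 other mast cell genes higher, against 4.26% of all genes: KIT, MITF, FCER1G, PTGS1, MCPT8L2, MCPT9 and CD63. By edgeR 6 were called, all but FCER1G, against 3.81%, and by DESeq2 8, with IL1RL1 added, against 7.75%. KIT was at 739, 1463, 1943 and 2042 with E2 and at 245, 264 and 267 without, a rise of 2.47 ± 0.53 (SE; limma adjusted p = 0.015). MCPT9, a gene of the mast cell protease family whose values did not follow those of the members (r = -0.07 with their mean over the 65 gland rats), rose from 76.6 to 101.1 up to 859 to 2056 (4.04 ± 0.79 SE, limma adjusted p = 0.011). MCPT8L2, of the MCPT8 protease family, rose by 2.91 ± 0.68 (SE; limma adjusted p = 0.021). KIT lost its call in 3 and MCPT8L2 in 6 of the fits that left out 1 rat (adjusted p up to 0.061 and 0.087). The 2 measured basophil markers (IL3RA and IL4) summed to 20.4 to 40.4 RPM with E2 and 7.26 to 9.98 without, the 9 T cell markers to 1715 to 2557 and 988 to 1612, the 9 neutrophil markers to 91.7 to 230.0 and 17.5 to 29.9, and the 9 macrophage markers to 199 to 652 and 136 to 151. KIT, MITF, FCER1G and CD63 are made by leukocytes other than mast cells, and the part of those cells was not tested. In vehicle rats with E2 against those without, limma, edgeR and DESeq2 called 0 of 21 other mast cell genes and limma 0.282% of all genes, with 5 of the 21 and 12.1% of all genes at an unadjusted p below 0.05. All 7 genes named above overlapped there: KIT differed by 1.32 ± 0.49 (SE), MCPT9 by 2.18 ± 0.73, PTGS1 by -0.03 and MITF by -0.28. For all but PTGS1 and MITF the overlap came from vehicle rat A4-8 without E2. That rat was at 1396 for KIT, 1233 for MCPT9 and 119.8 for MCPT8L2. The other vehicle rats without E2 were at 234 to 473, 67.4 to 102.5 and 7.55 to 24.6. Vehicle rats with E2 were at 487 to 1831, 351 to 1359 and 41.2 to 143. Between tumor-free TGFBRi and vehicle rats with E2, limma and edgeR called 0 of the 21 genes and DESeq2 called 1 higher. The share of all genes called by DESeq2 there is not given, so nothing is read from that call. Whether the E2 difference itself differed between the treatments was not tested for these genes.

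**Figure D3:**
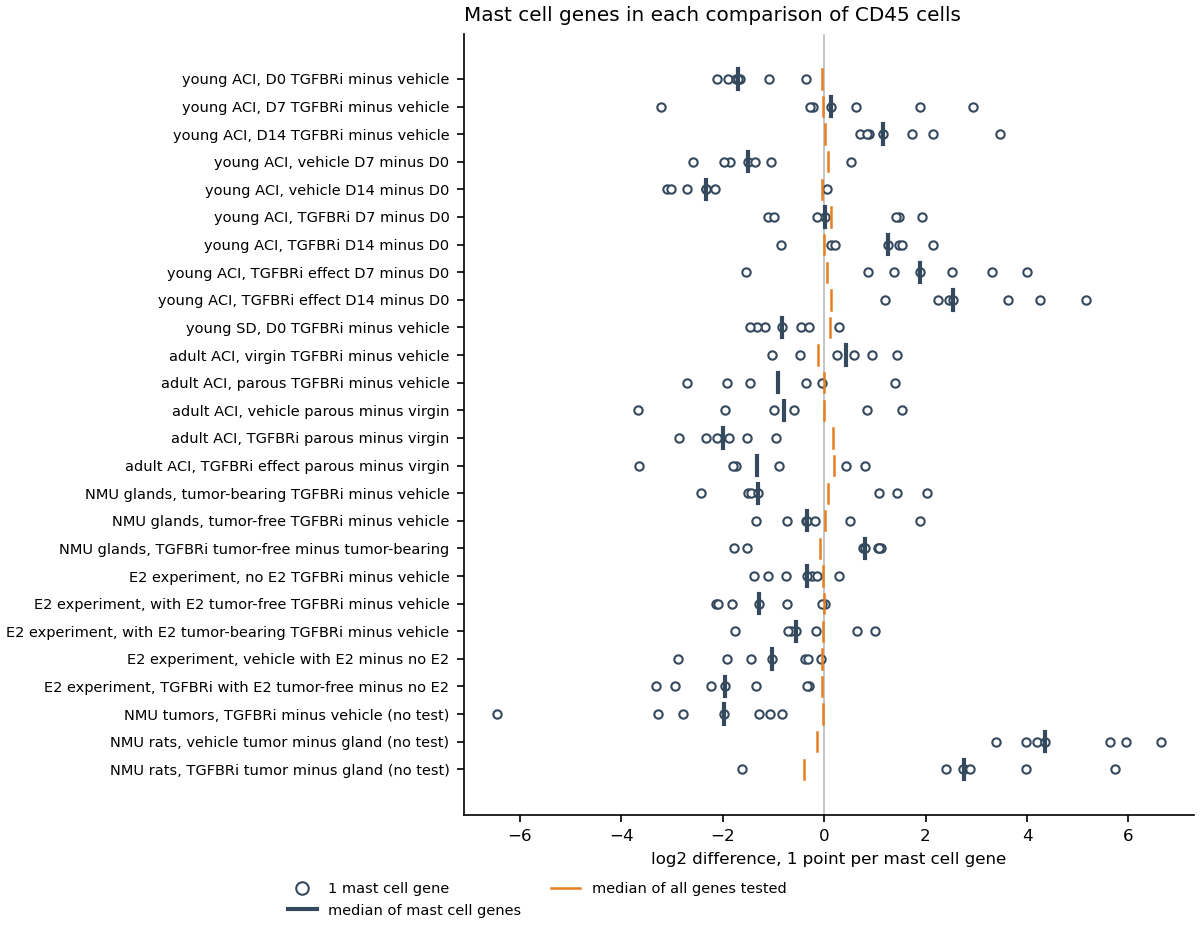
Log2 differences of the mast cell genes (1 point per gene) in each comparison of CD45 cells, with the median of the members (dark bar) and of all genes tested (orange bar). In the 23 comparisons with a test no point passed an adjusted p of 0.05 by limma; the medians lie farthest from 0 for tumor against gland, at 4.35 in vehicle and 2.75 in TGFBRi rats, which had no test.

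In CD45 cells of tumors, the contrast that chose these genes, all 7 had lower mean log2 values after TGFBRi, with a median of -1.98 against -0.03 for all genes tested. TPSB2 was at 1458, 1667 and 14089 in the 3 vehicle tumors and at 101.5, 357 and 1043 in the 3 TGFBRi tumors. TPSAB1 was at 1109, 1539 and 6856 against 167, 203 and 1067, and HDC at 81.4, 163 and 585 against 0, 0.974 and 5.06. These 3 members did not overlap, where 6.26% of all genes were lower without overlap, and nothing is read from that share here because the contrast chose the members. The other 4 overlapped: CMA1 was at 1396, 1740 and 10369 against 308, 618 and 2148, and CPA3 at 398, 1630 and 14008 against 569, 609 and 1826. FCER1A was at 120, 530 and 3287 against 220, 245 and 431, and MS4A2 at 20.9, 53.5 and 1384 against 26.3, 79.5 and 134. Vehicle tumor C2R was highest for all 7 genes. Without it the median was -1.07 and 3 members turned to higher values after TGFBRi, CPA3 (0.09), FCER1A (0.18) and MS4A2 (0.95). Of the 22 other mast cell genes measured, 17 had lower and 5 had higher mean log2 values after TGFBRi (median -1.08), where 48.9% of all genes were higher. Nothing is read from that count either, because it uses the same tumors and the contrast that chose the members. TGFBRi tumor D2N lay above the others of its group for 5 of the 7 members. MCPT2, a protease of mucosal mast cells, was at 485, 718 and 1311 in vehicle and 154, 188 and 253 in TGFBRi tumors, and KIT at 0, 85.7 and 101.2 and at 1.95, 7.31 and 25.9. The content of the sorts differed too: PTPRC was at 166, 498 and 601 RPM in vehicle and 608, 860 and 1225 in TGFBRi tumors. COL1A1 was at 132, 143 and 645 RPM and at 18.3, 129 and 485. Vehicle tumor C5R had the lowest PTPRC and the highest COL1A1. Their part in the mast cell values was not tested.

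Gland and tumor CD45 cells of the same 6 rats were put on 1 scale to ask whether mast cell transcripts were higher in tumors. In vehicle rats all 7 members were higher in the tumor than in the gland of each rat, with a median difference of 4.35 against -0.13 for all genes tested. CMA1 was at 17.7, 24.4 and 34.8 RPM in vehicle glands and at 127, 140 and 1012 in the tumors. FCER1A was at 0.98, 2.48 and 6.26 RPM against 12, 38.6 and 321. On the joint scale, reads scaled by TMM, the groups did not overlap for any member, against 12.6% of all genes. In RPM MS4A2 overlapped, at 1.52 in the tumor of C2N and 1.61 in the gland of C5R. No test is given for the members in this or the next comparison, and nothing is read from these shares, because the tumors are part of the contrast that chose the genes.

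In TGFBRi rats 6 members had higher mean log2 values in tumors and HDC a lower one, with a median difference of 2.75 against -0.39 for all genes tested. FCER1A was at 0.264, 0.35 and 0.719 RPM in glands and at 22.2, 23.3 and 37.9 in tumors, a difference of 5.74 ± 1.08 (SE). CMA1 was at 5.6, 8.26 and 21.6 RPM in glands and at 29.3, 62.3 and 189 in tumors, a difference of 2.74 ± 0.80 (SE). TPSAB1 was at 1.98, 3.27 and 12.9 against 15.9, 20.5 and 93.9, a difference of 2.75 ± 0.87 (SE). CPA3 was at 4.2, 4.43 and 6.08 against 57.5, 57.9 and 161, a difference of 3.99 ± 1.53 (SE). FCER1A and CPA3 thus stood far above their gland values in each tumor, while for TPSAB1 and CMA1 the highest gland and the lowest tumor lay closer together. The histamine enzyme HDC was at 0, 0.0858 and 0.511 in tumors against 0.397, 0.458 and 0.7 in glands, a difference of -1.62 ± 1.56 (SE). In 5 of 7 members every tumor exceeded every gland, where 17.1% of all genes did; TPSB2 and HDC overlapped. Without 1 sample of a TGFBRi rat the members' median ranged from 1.98 to 3.33.

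The purity of the sorts moved with this comparison. The summed leukocyte markers were at 867 to 5135 RPM in the glands of these rats and at 6048 to 11574 in the tumors, and the fibroblast markers at 7778 to 29786 and 349 to 2601. When reads were scaled by the summed leukocyte markers, an alternative added after the data were seen, FCER1A differed by 4.07, TPSAB1 by 0.97 and CMA1 by 0.95. FCER1A is also carried by basophils, whose 3 measured markers (IL3RA, IL4 and MCPT8) summed to 54.9 to 101.7 in glands and 70.1 to 160 in tumors. Among the other 19 mast cell genes, limma called MCPT2, IL1RL1 and SRGN higher and KIT, LTC4S, ALOX5 and CD63 lower in TGFBRi tumors, beside 8.71% of all genes called higher and 13.4% lower. MCPT2 was listed at 0 in all 3 TGFBRi glands and at 13.6, 19 and 24.1 RPM in their tumors (limma adjusted p = 0.00031). Under the scaling by leukocyte markers IL1RL1 differed by 0.15 (limma adjusted p = 0.89), and edgeR did not call SRGN (adjusted p = 0.069). KIT was at 13, 16.9 and 28 RPM in glands and at 0.172, 0.695 and 2.62 in tumors (-4.58 ± 1.56 SE, limma adjusted p = 0.048), and its call was lost by edgeR (adjusted p = 0.057) and in each of the 6 limma fits that left out 1 sample (adjusted p = 0.050 to 0.13). Luminal epithelial cells also make KIT, and the 10 luminal markers summed to 2127 to 7315 RPM in the glands and 139 to 515 in the tumors of these TGFBRi rats; their part in the KIT values was not tested. The T cell markers summed to 216 to 1065 RPM in these glands and 1998 to 5735 in these tumors, the 3 eosinophil markers to 1.81 to 6.14 and 29.8 to 94.1, and the macrophage markers to 2638 to 10925 and 423.1 to 1412, and their part was not tested either.

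**Figure D4:**
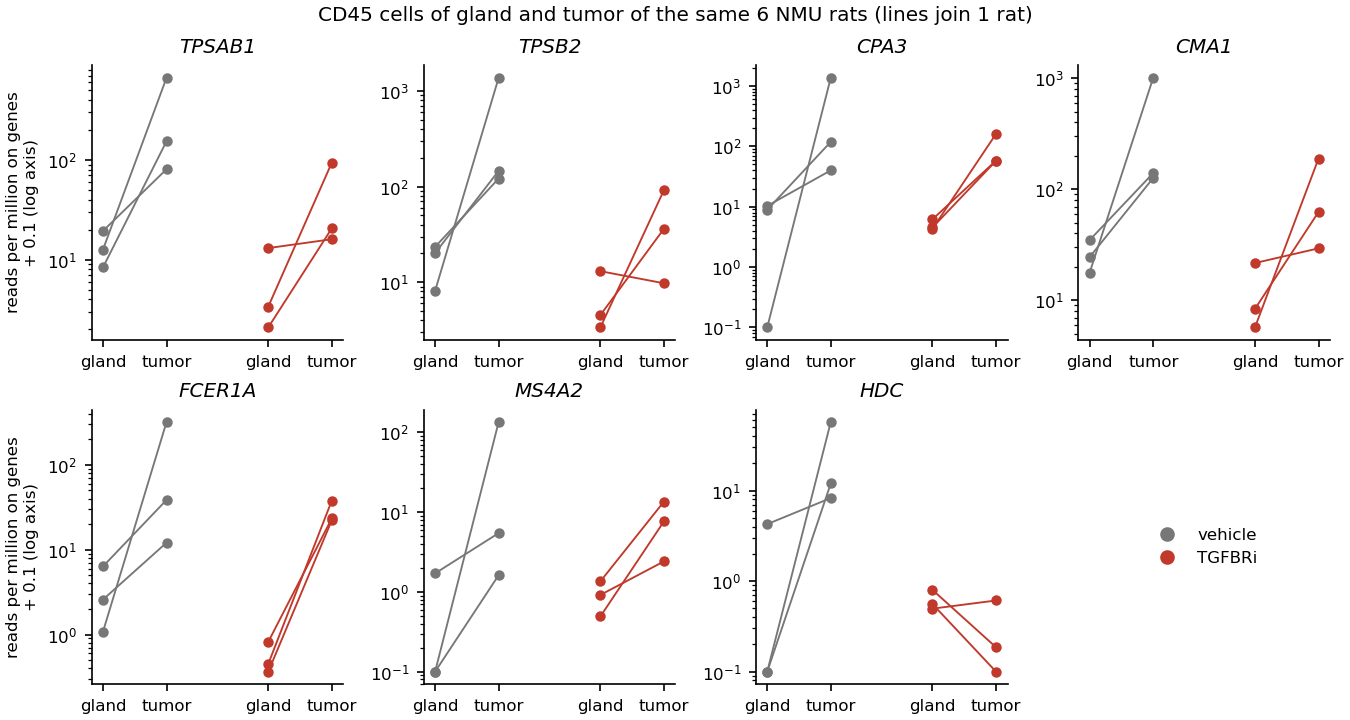
RPM + 0.1 (log axis) of each mast cell gene in CD45 cells of gland and tumor, with lines joining the 2 samples of a rat. Every line rises in vehicle rats; in TGFBRi rats FCER1A rises from 0.264 to 0.719 up to 22.2 to 37.9, TPSB2 falls in 1 rat and HDC in 2.

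Mast cell transcripts were not confined to the CD45 sort of the tumors. The EPCAM sort, meant to hold tumor epithelium, had 772, 407 and 9.25 RPM summed over the members in vehicle tumors C2N, C2R and C5R, whose CD45 sorts had 499, 4937 and 506. In TGFBRi tumors D2N, D3R and D4R it had 91.3, 1188 and 2972, and the CD45 sorts had 576, 144 and 213. The EPCAM sort thus held more than the CD45 sort in 2 of 3 TGFBRi tumors, by 8.27 and 14 times, and in 1 of 3 vehicle tumors, by 1.55 times. In rat D4R, TPSB2 was at 793 RPM in the EPCAM sort and at 36.1 in the CD45 sort, and CMA1 at 754 and 62.3.

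The EPCAM sorts were mixed. PTPRC was at 3.87 to 51.4 RPM, with 49.9 and 51.4 in D3R and D4R and 27.6 in C2N, the 3 tumors with the most mast cell reads there, but C2R, with 407 RPM of the members, had the lowest PTPRC. COL1A1 was at 3702 to 26378. EPCAM itself was at 2552 RPM in C5R, 533 in D2N, 482 in C2R, 424 in D3R, 382 in C2N and 149 in D4R. It was thus highest in the tumor with the fewest mast cell reads there and lowest in the tumor with the most. In the basal and luminal sorts of glands the summed members reached at most 24.8 RPM, in a basal sort of a young ACI rat. With the EPCAM sort, the order of the treatments was turned: the summed median was 407 in vehicle and 1188 in TGFBRi tumors, with overlap. What sets the sorts of a tumor apart was not tested.

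**Figure D5:**
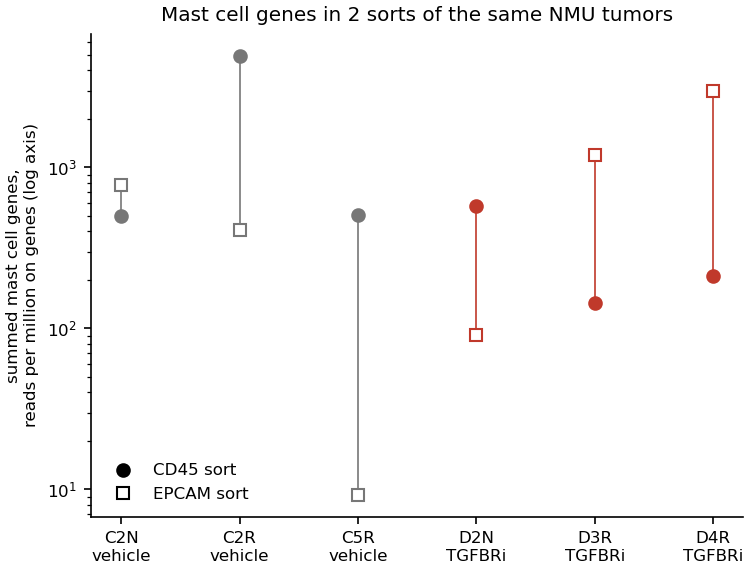
Summed RPM of the 7 mast cell genes (log axis) in the CD45 sort (filled) and the EPCAM sort (open) of each of 6 NMU tumors. The CD45 sort is higher in C2R, C5R and D2N, and the EPCAM sort is higher in C2N, D3R and D4R, up to 2972 in D4R.

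Over the 65 gland CD45 rats, with each experiment centred on its own mean, CPA3 and CMA1 were the most alike of 15 pairs of the 6 members measured everywhere (Pearson r = 0.78), and TPSAB1 and MS4A2 the least (r = 0.17). These rats share libraries with all genes, so the values are descriptions. Among 7928 genes with a mean of at least 50 reads in every gland experiment, the mast cell chymase family gene MCPT1L1 was most like the mean of the members (r = 0.74), followed by ADAP2 (0.58), SLC30A4 (0.50), PPP3CA (0.48) and SLC7A11 (0.48). MCPT1L1 reached r of 0.83 to 0.97 within 4 of the 5 experiments and 0.25 in adult ACI rats. KIT had r = 0.03 and GATA2 r = 0.17.

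Single cells of whole SD glands were searched for these transcripts. The paper describes this experiment as a whole-gland repeat of its work on sorted epithelium of peripubertal SD rats, taken right after a 10-day TGFBRi regimen. Its methods name the TGFBRi dose stated above for all rats and give no separate age for the whole-gland rats. Among 103524 cells of 3 vehicle and 6 TGFBRi rats, 9 cells had UMIs of at least 3 of the 6 members listed for these glands. These cells were counted as carrying the mast cell set. They were 0, 1 and 1 in vehicle rats and 0, 0, 2, 2, 1 and 2 in TGFBRi rats, or 0.00547% ± 0.00475 (SD, n = 3) and 0.0101% ± 0.00852 (SD, n = 6) of cells, two-sided exact permutation p = 0.31, where 0.0238 is the smallest p that 3 against 6 rats allow. No keratin cell had 3 members. In the 6 rats with such cells they held 48.2% to 98.1% of all UMIs of the members. By gene, they held 420 of 440 UMIs of TPSAB1 over the 9 rats and 641 of 695 of CMA1, but only 44 of 134 of HDC and 20 of 33 of FCER1A, so most HDC UMIs lay in other cells. The members' own counts in these cells restate how the cells were chosen: all 9 had UMIs of TPSAB1, CPA3 and CMA1, 8 of TPSB2 and HDC, and 5 of FCER1A. Among genes that did not choose them, MCPT1L1 had UMIs in all 9, MCPT1 in 7, MCPT8, TPH1 and KIT in 6 and SLC18A2 in 5. Other genes of the mast cell list were rare or absent: GATA2 and PTGS1 had UMIs in 2 of the cells, MITF and LTC4S in 0. Per 1000000 UMIs, MCPT1L1 was at 49213 in these cells and 0.259 in the other cells with PTPRC, MCPT8 at 1109 and 2.51, TPH1, an enzyme of serotonin synthesis, at 665 and 1.67, and KIT at 465.7 and 20.7. PTPRC had a UMI in 5 of the 9, while KRT14, KRT8, CD3E and CD68 had a UMI in 0 and COL1A1 in 2. No doublet caller was run here, and the median UMIs of such cells were 1502 to 11791 per library, against 2820 to 3561 for all cells of those libraries. Libraries of this experiment shared 88 to 284 barcodes per pair, and 2 of the 9 cells had a barcode found in another library. For summed UMIs per rat, edgeR called 0 of 5 members tested, with TPSAB1 at 1.87 (adjusted p = 0.34) and CMA1 at -0.19, against 13.4% of 15850 genes called higher and 14.4% lower. DESeq2 called 0 members, and 0 had an unadjusted p below 0.05 by edgeR.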

How the data were processed

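Bulk RNA-seq of sorted CD45 cells and single-cell RNA-seq of mammary glands were analysed. Per the submitters' processing notes, reads were aligned to rn6 with STAR 2.5.1b and counted with HTSeq, and single cells were processed with Cell Ranger (4.0.0 and 7.0.0) and Seurat (4.0.0 and 4.1.1). The deposited bulk values are a signal by gene symbol, which the authors obtained as read counts over a size factor of the sample (DESeq2 1.30.1). Whole reads could be recovered from 100% of the 2526805 values above 0 (tolerance 0.001), although in 7 samples, 4 of them CD45, the step lay close to 1 and is less certain. The single-cell tables of whole glands hold raw UMI counts, filtered by the authors, and no doublet caller was run on them; tables of sorted epithelium were not used for the results. No column of another sample was used (0 such columns). Reads assigned to no gene, 30.7 to 42.5% of the reads of the CD45 samples that list them, stayed out of totals and tests. CD45 samples held 7006141 to 40042138 reads on genes, so that a member at a few reads is measured with large counting error.

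Groups were taken from the sample labels, and rats are the replicates. In 500 pairs of CD45 samples 0 were identical. The 4 samples of rat A4-15 were averaged. Groups were compared on log2(value + 1) by limma 3.58.1 (trend, robust) with all groups of an experiment in 1 model, leaving out genes with a summed value below 10, with Benjamini-Hochberg adjustment over all genes and a threshold of 0.05. For tumor against gland, recovered reads of both tables were scaled together by TMM. The same 6 rats gave both samples, but their deviations from the group means correlated at only -0.04 to 0.07, and the rat as a replicate block was an alternative. Because the tumors chose the members, members were tested there in no fit and other mast cell genes in TGFBRi rats only. Other alternatives were edgeR 4.0.16 and DESeq2 1.42.0 on recovered reads, pseudocounts of 0.5 and 5, other filters, fits of the compared groups alone and fits without each rat. Single-cell UMIs were summed per rat and compared by edgeR, and shares of cells by an exact permutation test. The limma fits of some bulk comparisons and the edgeR fit of single cells were tested on simulated data in which 200 genes had a known change. The other fits, among them edgeR and DESeq2 on recovered reads, were not. The tools ran in R 4.3.3 and Python 3.11.15 (scipy 1.17.1).

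The members and the gene lists were chosen with earlier results of these data known. Named genes were the 7 members, other mast cell genes past the threshold, KIT, GATA2, MCPT2, MCPT8 and IL1RL1, and the 5 genes most like the mean of the members. Genes named in the paragraph on single cells, and those beyond this rule, were chosen after their values were seen. Members may share reads with near-identical tryptase and chymase copies. Per the study's methods the aligner kept reads that match several places, and HTSeq ignored strand with no other change from its defaults named; by default it leaves such reads uncounted, so values of members with close copies are uncertain. Promoter sequences came from RefSeq on GRCr8 and were used without the coordinates of rn6.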

Additional observations from a re-analysis of the deposited data

Results flagged for a closer look

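Of 47 pairs of a member and a group of 4 rats or more, 13 had 1 rat far from the others by Dixon's test. The test was run on normalized values, not on log2 values. It flags about 1 in 20 by chance only where values are normally distributed. All 13 flagged values were the highest of their group, so their number is not read against that rate. The pairs share rats, so the 13 are not independent.

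Rat A4-15, a tumor-free TGFBRi rat with E2, was far above the other 3 rats of its group for 5 members. Its normalized value was 120.4 for TPSAB1 (others 0 to 8.72), 166.3 for TPSB2 (0 to 4.76), 464.9 for CPA3 (0 to 43.4), 440.1 for CMA1 (0 to 35.9) and 13.12 for FCER1A (0 in all). The virgin vehicle rat C_N2R of the adult ACI experiment was far above its group for TPSAB1 at 216.9 (others 20.7 to 31.6), MS4A2 at 32.3 (0 to 1.97) and HDC at 28.61 (0 in all). Rat A4-38, a vehicle rat without E2, had 208.7 for TPSB2 (others 54 to 77.7) and 18.19 for MS4A2 (0 to 2.14).

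Single values stood apart in 3 more groups. CPA3 was at 5476 in young SD vehicle rat C6R (others 170.2 to 1048) and at 89.54 in parous TGFBRi rat D_P1N (17.5 to 25.8). MS4A2 was at 7.358 in rat A4-27, a tumor-bearing vehicle rat with E2 (0.894 to 1.96).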

How the results depend on the processing

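Over 202 alternatives for the comparisons that did not leave out a rat, 195 stayed within the set limits, 6 moved and 1 reversed. Over 215 that left out 1 rat 210 stayed and 5 moved. These limits concern the count of members called, the median of the members or the share of single cells. Counts were compared without regard to the direction of single members, so a count of 0 that stayed 0 was kept. For single genes, 212 of 231 such alternatives kept the call, 11 gained it, 4 lost it and 4 reversed, and of 205 without 1 rat 173 kept it, 11 gained it and 21 lost it. DESeq2 called 3 members at day 0 in young ACI rats, 1 in vehicle rats from day 0 to day 7, 3 from day 0 to day 14 and 3 for the change of the effect to day 14, where limma called 0. With the sample pt4 of rat A4-15 in place of the average, 1 member was called for E2 in TGFBRi rats. Nothing is read from that call, because the share of all genes called in that fit is not given. Scaling reads by leukocyte markers was an alternative chosen after seeing the data. With it the median of the members for tumor against gland in TGFBRi rats moved from 2.75 to 0.97. In E2-treated TGFBRi rats CPA3 (-2.23 by limma) reversed to 0.57 by edgeR and 0.55 by DESeq2, and TPSB2 (-2.95) to 0.060 and 0.016. The difference in the share of single cells, 0.00463 percentage points, reversed to -0.00323 among cells with PTPRC. The cause of these changes was not tested.

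With 1 rat left out, the count of members called ranged from 0 to 2 at day 0, 0 to 1 from day 0 to day 7 in vehicle rats, 0 to 4 from day 0 to day 14, 0 to 2 for the change of the effect and 0 to 2 for E2 in TGFBRi rats. Where this left 1 rat in a group, that rat was taken to vary like the other groups. In the young ACI comparisons the highest counts came without vehicle rat LD3L. With the rat as a replicate block, the median of the members for tumor against gland in TGFBRi rats was again 2.75, and the 7 other mast cell genes called there were called as well, KIT with a limma adjusted p of 0.032. Groups of 2 to 4 rats and members at a few reads limit what these data can show.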

Other observations

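GATA2, a transcription factor of mast cells and basophils, was called by limma, edgeR and DESeq2 in 0 of 24 comparisons, with limma adjusted p from 0.36 to 1 and 0 at an unadjusted p below 0.05. MCPT8, best known as a protease of basophils but also found in 6 of the 9 single cells with the mast cell set, was called by limma and edgeR in 0 of 14 comparisons and by DESeq2 in 1, with limma adjusted p from 0.079 to 1 and 1 at an unadjusted p below 0.05.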
